A study of Mus musculus with 4 samples.

Results

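The 42 genes described here encode proteins of DNA repair, of the Fanconi pathway and of DNA damage signalling, taken from a list of symbols grouped by function. Every one of them was named alone by at least 1 probe set, among 18193 genes so named on the array. They were grouped as 13 genes of homologous recombination, 9 Fanconi genes, 4 kinases of damage signalling, 3 mismatch repair genes, 5 end joining genes, 6 base excision repair genes and 2 replicative polymerases. The RNA came from whole livers of C57BL/6 mice at 4 weeks of age, with 1 array for each of 2 Control livers, labelled wild type, and 2 Cnot3KO livers. Cnot3 belongs to Ccr4-Not, the main deadenylase of the cell, whose trimming of poly(A) tails starts the decay of mRNAs. In the Cnot3KO livers a floxed Cnot3 allele was deleted by Cre recombinase from the Albumin promoter, which acts in hepatocytes and their precursors and leaves Cnot3 intact in the other cells of the liver. The study's methods counted mice with floxed alleles but no Cre, and Cre mice with at least 1 intact allele, as controls. Which of these genotypes the Control livers had, and the sex of the mice, were not stated for the arrays.

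Homologous recombination copies intact DNA from a sister chromatid to mend a double-strand break, and end joining ligates the broken ends directly. Fanconi proteins act where a crosslink joins both strands, mismatch repair corrects errors of copying, and base excision repair replaces single damaged bases. Many genes of recombination and mismatch repair are transcribed mainly around S phase, when DNA is copied, so that their mRNAs are low in the quiescent hepatocytes of a mature liver.

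Values below are Robust Multi-array Average (RMA) intensities on the log2 scale, each gene by the probe set with its highest mean over the 4 arrays. Differences are given ± standard error (SE), with n = 2 arrays per group, and adjusted p is from limma with Benjamini-Hochberg adjustment over 38405 probe sets. A gene is said to have risen or fallen where adjusted p was under 0.05. Precision is limited by the small number of arrays. The labels do not say whether littermates were used. The SE and p-values from limma combine the spread between these 4 livers with the spread over all tested probe sets. Of 5.40 total degrees of freedom, 3.40 came from the latter. Whether genes that passed differ from genes that did not was not tested.

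Pairs of values are given with replicate 1 first. The array medians lay from 3.09 to 3.14. Cnot3 itself was at 5.99 and 6.04 in Control livers and at 5.15 and 5.30 in Cnot3KO livers, in the direction of the labels (-0.79 ± 0.16, adjusted p = 0.0372), a call that was lost when any 1 array was left out (-0.87 to -0.71). Its second probe set did not pass (-0.40, adjusted p = 0.218). Which exons the Cnot3 probe sets match was not known here, so they may lie outside the deleted stretch. The 9 hepatocyte markers measured, Alb among them, had summed intensities on the linear scale of 71118 and 70631 in Control and 76073 and 76601 in Cnot3KO. Markers of several other cell types, though not of all, moved more. Of 7 measured markers of dividing cells 6 rose, with summed intensities of 185 and 94.1 in Control and 545 and 890 in Cnot3KO. The marker that did not pass was Mki67, at 5.35 and 3.56 in Control against 5.81 and 6.66 in Cnot3KO on the log2 scale (1.78 ± 0.62, adjusted p = 0.125). Of 8 macrophage markers 3 rose (2086 and 1915 in Control, 3519 and 3840 in Cnot3KO), of 6 cholangiocyte markers 4 (37.1 and 42.7, then 412 and 221) and of 7 stellate cell markers 5 (1737 and 1455, then 4861 and 3713). Among 8 neutrophil markers 2 rose and 1 fell (123 and 112 in Control, 206 and 148 in Cnot3KO), and among 5 erythroid markers 2 fell (725 and 925, then 502 and 1020). The median difference of the erythroid markers was -1.32, and the fallen ones were Alas2 (-2.57) and Klf1 (-1.42). Their sums in Cnot3KO came mostly from Tfrc, at 8.76 and 9.83 on the log2 scale. It was the 1 erythroid marker with a difference above 0 (0.68, adjusted p = 0.336). Lymphoid and endothelial markers had median differences of -0.19 and -0.07. None of these markers lay below the 20th percentile of the array on all 4 arrays. The part of these cells in the results below was not tested. In RNA of whole liver, a change in how many cells of a type there are and a change in RNA per cell cannot be told apart.

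More of the repair genes were higher than lower in the Cnot3KO livers. Of the 42 genes 14 rose and none fell, where 12.2% of all genes rose and 4.64% fell. Of the others 23 were above and 5 below 0 without passing. At an unadjusted p under 0.05 limma gave 22 higher and 0 lower, beside 3842 and 2077 of all 16749 genes. The methods' t-test without adjustment gave 12 higher and 2 lower, which were Fancc and Atm, beside 2365 and 1574 of all genes. The median difference was 0.74, beside 0.00 over all 16749 genes tested. At least 2-fold higher were 13 genes and at least 2-fold lower none, beside 11.6% and 3.96% of all genes. Both Cnot3KO arrays lay above both Control arrays for 32 genes (34.8% of all genes) and below them for 3 (30.3% of all genes), which were Fancc, Atm and Prkdc. Exo1, which is in the counts of 22, 13 and 32, lay above the 20th percentile of the array only in Cnot3KO. The count of risen genes rested on all 4 arrays. It was 4 without Control replicate 1, 5 without Control replicate 2, 12 without Cnot3KO replicate 1 and 6 without Cnot3KO replicate 2. Brca1, Mre11a and Lig1 passed in each of these cases.

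**Figure D1:**
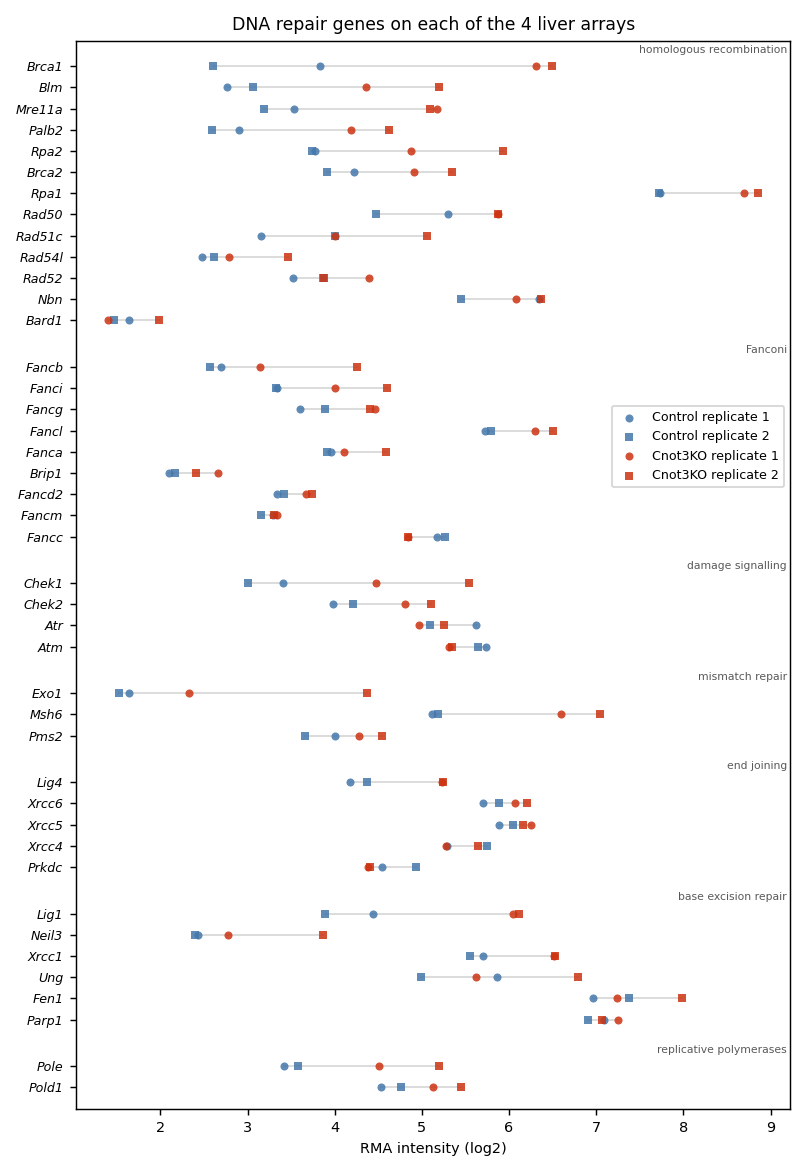
RMA intensity on the log2 scale (x axis) of 42 DNA repair genes (y axis, grouped by pathway and ordered by difference) on each array, blue for Control, red for Cnot3KO, circles for replicate 1 and squares for replicate 2. The gray line spans the 4 values. The red points lie above the blue points for 32 genes, with Brca1 from 3.83 and 2.61 to 6.31 and 6.50.

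Recombination genes made up 7 of the 14 that rose, out of 13 on the list, where 12.2% of all genes rose. Their median difference was 1.05. Brca1, which recruits the recombination machinery to broken DNA, read 3.83 and 2.61 in the Control livers and 6.31 and 6.50 in the Cnot3KO livers. The Cnot3KO values were close together and far above both Control values, which were themselves over 1 apart. The rise was 9.08-fold (3.18 ± 0.41, adjusted p = 0.0121). Palb2, which bridges Brca1 and Brca2, was at 2.90 and 2.59 in Control against 4.19 and 4.62 in Cnot3KO (1.66 ± 0.22, adjusted p = 0.0136). Brca2, a mediator of recombination, read 4.22 and 3.92 in the Control livers and 4.91 and 5.34 in the Cnot3KO livers (1.06 ± 0.22, adjusted p = 0.0386). In both genes the groups were apart, by more in Palb2. Bard1, the obligate partner of Brca1, was at 1.64 and 1.47 in Control against 1.40 and 1.98 in Cnot3KO, so that its groups overlapped (0.13 ± 0.24, adjusted p = 0.741). Both of its Control values lay at or below the 20th percentile of the array, and it had a single probe set.

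The 3 genes of the complex that senses and trims broken ends gave unequal values. The nuclease gene Mre11a read 3.54 and 3.19 in the Control livers and 5.17 and 5.09 in the Cnot3KO livers, a rise of 3.41-fold (1.77 ± 0.19, adjusted p = 0.00874). It had the lowest adjusted p of the 42 genes. Rad50, the tether of the complex, read 5.30 and 4.48 in Control and 5.87 on both Cnot3KO arrays (0.98 ± 0.30, adjusted p = 0.0895). Nbn, which links the complex to the kinase Atm, was at 6.34 and 5.45 in Control against 6.08 and 6.36 in Cnot3KO, with overlapping groups (0.32 ± 0.33, adjusted p = 0.536). Neither Rad50 nor Nbn passed, and in both it was Control replicate 2 that lay low.

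Among genes that act on single strands and joint molecules, the helicase gene Blm read 2.77 and 3.07 in the Control livers and 4.35 and 5.19 in the Cnot3KO livers (1.86 ± 0.31, adjusted p = 0.0222). Both subunits of replication protein A on the list, which coats single-stranded DNA, rose. Rpa1 was at 7.73 and 7.72 in Control against 8.69 and 8.85 in Cnot3KO (1.05 ± 0.16, adjusted p = 0.0182). Rpa2 read 3.78 and 3.74 in the Control livers and 4.88 and 5.93 in the Cnot3KO livers (1.64 ± 0.36, adjusted p = 0.0416). The Rpa1 replicates agreed closely in each group, whereas the Rpa2 values of the Cnot3KO livers were over 1 apart. The other recombination genes did not pass. Their differences were 0.95 ± 0.44 for the recombination gene Rad51c (adjusted p = 0.212), 0.58 ± 0.26 for the translocase gene Rad54l (adjusted p = 0.203) and 0.44 ± 0.24 for the annealing factor gene Rad52 (adjusted p = 0.282).

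None of the 9 Fanconi genes passed in limma's test, where 12.2% of all genes rose. Their median difference was 0.41, with 8 of 9 above 0. At an unadjusted p under 0.05 limma gave 4 higher (Fancb, Fanci, Fancg and Fancl) and 0 lower, beside 3842 and 2077 of all 16749 genes. The methods' t-test without adjustment gave 3 higher and 1 lower, beside 2365 and 1574 of all genes. Fanci, of the pair of proteins ubiquitinated at a crosslink, was at 3.34 and 3.33 in Control against 4.00 and 4.60 in Cnot3KO (0.97 ± 0.24, adjusted p = 0.0580). Its partner Fancd2 read 3.34 and 3.42 in the Control livers and 3.67 and 3.74 in the Cnot3KO livers (0.33 ± 0.16, adjusted p = 0.232). By these probe sets the Cnot3KO values lay above the Control values in both genes, as in 34.8% of all genes, and neither difference passed. Another Fancd2 probe set had its groups apart in the other direction (-0.50, adjusted p = 0.104), and a further tested one overlapped (0.05, adjusted p = 0.925). Of the core complex, which is the ubiquitin ligase for that pair, its catalytic subunit gene Fancl was at 5.72 and 5.80 in Control against 6.30 and 6.50 in Cnot3KO (0.64 ± 0.17, adjusted p = 0.0666). Fancg read 3.60 and 3.88 in the Control livers and 4.46 and 4.40 in the Cnot3KO livers (0.69 ± 0.18, adjusted p = 0.0644). Fancb was at 2.70 and 2.57 in Control against 3.14 and 4.26 in Cnot3KO (1.07 ± 0.38, adjusted p = 0.127). These 3 genes had both Cnot3KO values above both Control values, as 34.8% of all genes did. In Fancb the Cnot3KO values were over 1 apart. Fancc, another core subunit, read 5.18 and 5.27 in the Control livers and 4.84 and 4.84 in the Cnot3KO livers and was the Fanconi gene with a difference below 0 (-0.38 ± 0.16, adjusted p = 0.179). Other Fancc probe sets were at 0.02 (adjusted p = 0.942) and -0.24 (adjusted p = 0.567), with overlapping groups. Fanca, the helicase gene Brip1 and the translocase gene Fancm had differences of 0.41, 0.40 and 0.10.

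Of the 4 kinases of damage signalling, 2 rose, where 12.2% of all genes rose, and both were effectors. Chek1, the checkpoint kinase downstream of Atr, was at 3.40 and 3.01 in Control against 4.48 and 5.54 in Cnot3KO, a rise of 3.49-fold (1.80 ± 0.38, adjusted p = 0.0385). Chek2, the checkpoint kinase downstream of Atm, read 3.99 and 4.21 in the Control livers and 4.80 and 5.11 in the Cnot3KO livers (0.86 ± 0.19, adjusted p = 0.0457). Both effectors rose without overlap of the groups. Atm itself was at 5.73 and 5.64 in Control against 5.31 and 5.35 in Cnot3KO (-0.36 ± 0.16, adjusted p = 0.198). Atr read 5.62 and 5.10 in the Control livers and 4.97 and 5.26 in the Cnot3KO livers (-0.24 ± 0.24, adjusted p = 0.526). Neither sensor passed, and the groups overlapped for Atr.

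In mismatch repair, Msh6, which recognises mispaired bases, was at 5.12 and 5.18 in Control against 6.59 and 7.05 in Cnot3KO, a rise of 3.18-fold (1.67 ± 0.21, adjusted p = 0.0115). The exonuclease gene Exo1 read 1.64 and 1.53 in the Control livers and 2.33 and 4.37 in the Cnot3KO livers. Its Cnot3KO values were further apart than the groups, and it did not pass (1.76 ± 0.64, adjusted p = 0.136). Both Control values lay at or below the 20th percentile of the array, so that it was tested only through its Cnot3KO values. Its second tested probe set, at 2.27 and 2.52 in Control, had a difference of -0.11 (adjusted p = 0.778). Pms2, the endonuclease subunit, was at 4.00 and 3.66 in Control against 4.27 and 4.54 in Cnot3KO (0.58 ± 0.20, adjusted p = 0.127).

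Of 5 end joining genes 1 rose, where 12.2% of all genes rose. The risen gene was Lig4, the ligase that seals the ends. It read 4.18 and 4.37 in the Control livers and 5.23 and 5.25 in the Cnot3KO livers (0.96 ± 0.17, adjusted p = 0.0237). Its scaffold partner Xrcc4 was at 5.29 and 5.75 in Control against 5.27 and 5.65 in Cnot3KO (-0.06 ± 0.24, adjusted p = 0.889). Lig4 was thus apart between groups by nearly 1 on the log2 scale, while each Xrcc4 value in Cnot3KO lay near a Control value. The Ku subunit genes Xrcc5 and Xrcc6 had differences of 0.24 ± 0.17 (adjusted p = 0.365) and 0.35 ± 0.17 (adjusted p = 0.232). Prkdc, the kinase that Ku recruits, read 4.54 and 4.93 in the Control livers and 4.39 and 4.41 in the Cnot3KO livers (-0.34 ± 0.20, adjusted p = 0.303).

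In base excision repair and strand synthesis, Lig1, which joins Okazaki fragments and the long repair patch, was at 4.44 and 3.89 in Control against 6.05 and 6.11 in Cnot3KO, a rise of 3.76-fold (1.91 ± 0.23, adjusted p = 0.0106). Xrcc1, the scaffold of single-strand break repair, read 5.71 and 5.56 in the Control livers and 6.51 and 6.53 in the Cnot3KO livers (0.89 ± 0.16, adjusted p = 0.0269). The replicates of both genes were close in Cnot3KO. Pole, the catalytic subunit gene of the leading strand polymerase, was at 3.42 and 3.58 in Control against 4.51 and 5.19 in Cnot3KO (1.35 ± 0.27, adjusted p = 0.0324). Pold1, its counterpart on the lagging strand, read 4.53 and 4.76 in the Control livers and 5.13 and 5.45 in the Cnot3KO livers, short of the threshold (0.65 ± 0.20, adjusted p = 0.0928). The glycosylase genes Neil3 and Ung had differences of 0.90 ± 0.37 (adjusted p = 0.167) and 0.78 ± 0.47 (adjusted p = 0.312). The flap endonuclease gene Fen1 was at 0.44 ± 0.30 (adjusted p = 0.372) and Parp1, which marks single-strand breaks, at 0.15 ± 0.17 (adjusted p = 0.584).

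**Figure D2:**
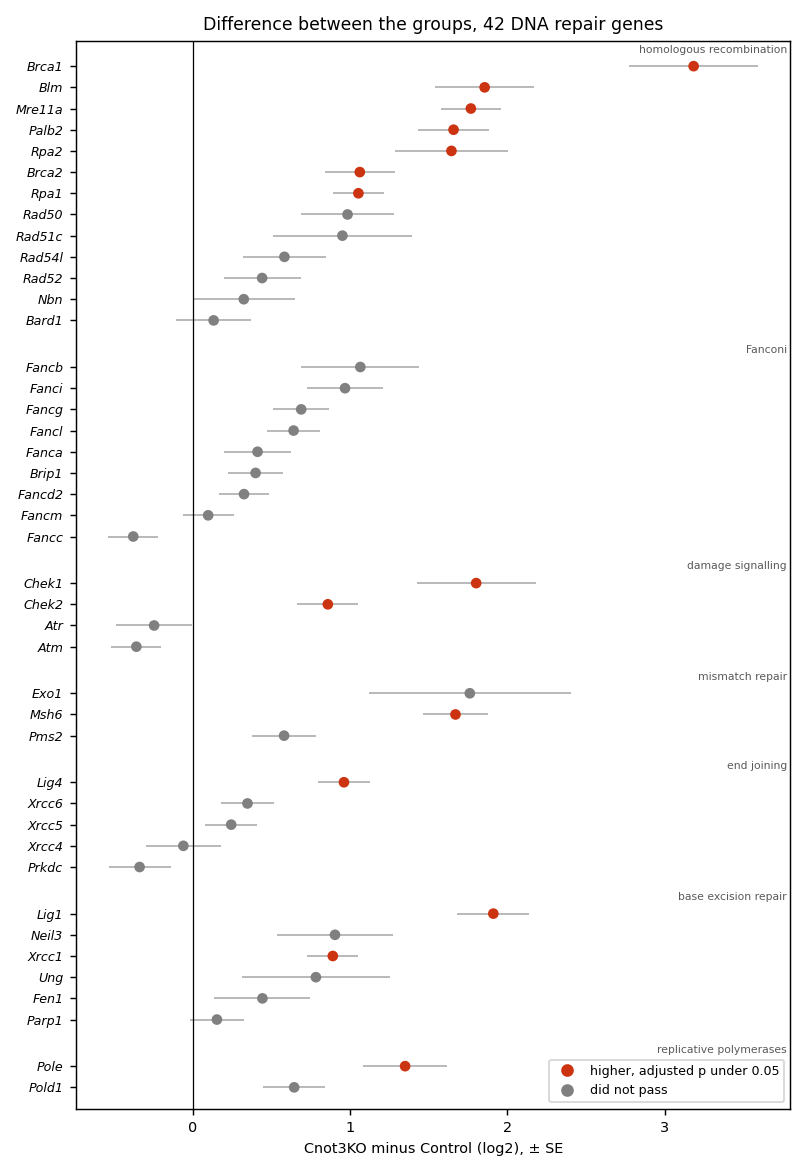
Difference between the means of Cnot3KO and Control on the log2 scale (x axis) for 42 DNA repair genes (y axis, grouped by pathway), with bars for the SE from limma. Red points are the 14 genes that rose at an adjusted p under 0.05 and gray points did not pass; the differences run from -0.38 for Fancc to 3.18 for Brca1.

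For 25 of the 42 genes several probe sets were tested, and these did not always give 1 answer. Over all 79 tested probe sets of the 42 genes, 21 rose and none fell, where 8.48% of all probe sets rose and 4.78% fell. By unadjusted p under 0.05, limma gave 30 higher and 1 lower, beside 6346 and 5550 of all 38405 probe sets. Of the 4 Brca1 probe sets 3 rose, by 3.18, 1.77 and 2.11, and the other was at -0.14 (adjusted p = 0.587). Of the 4 tested Chek1 probe sets 2 rose, by 1.80 and 1.86, and the other 2 were at 0.71 and -0.33. Both Rpa1 probe sets rose. The second Mre11a probe set was at 0.03 (adjusted p = 0.939), and the second Rpa2 probe set at 1.66 just missed the threshold (adjusted p = 0.0622). Fen1, Pold1 and Fancg, which did not pass above, each had another probe set that rose. The second Fen1 probe set was at 4.11 and 4.33 in Control against 5.72 and 6.93 in Cnot3KO (2.10 ± 0.41, adjusted p = 0.0309). The second Pold1 probe set read 3.81 and 3.47 in the Control livers and 4.77 and 5.25 in the Cnot3KO livers (1.37 ± 0.24, adjusted p = 0.0234). The probe sets that stand for Fen1 and Pold1 above are of a kind (_x_at) whose probes can match other transcripts as well, and with probe sets ending in _x_at or _s_at left out together 16 of the 42 genes rose. The second Fancg probe set was at 2.40 and 2.50 in Control against 3.72 and 3.44 in Cnot3KO (1.14 ± 0.18, adjusted p = 0.0190). Counting any tested probe set, 17 of the 42 genes rose, Fancg being the Fanconi gene among them. A gene with more probe sets has more chances to pass under this count. The share of all genes that rose was not determined for it, nor for the count of 16. In 14 genes a further probe set had a difference of the opposite sign, none of which passed.

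**Figure D3:**
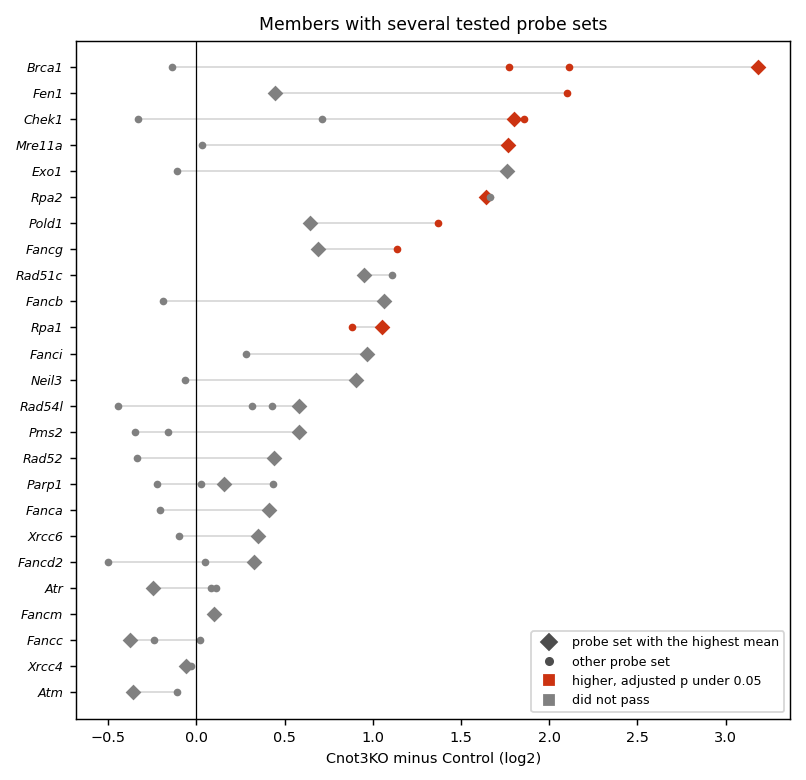
Difference between Cnot3KO and Control on the log2 scale (x axis) of each tested probe set of the 25 genes with several (y axis, ordered by their highest difference). Diamonds are the probe sets with the highest mean, circles the others, and red marks those that rose at an adjusted p under 0.05; for Fen1, Pold1 and Fancg the red point is the circle.

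The Cnot3KO livers also differed from each other. Replicate 2 lay above replicate 1 for 35 of the 42 genes, against 48.2% of all genes tested. The gap was over 1 on the log2 scale for 7 genes (Rad51c, Rpa2, Fancb, Chek1, Exo1, Ung and Neil3), each higher in replicate 2. A set of 20 members generally known to peak around S phase, Brca1, Chek1, Msh6 and Lig1 among them, was compared with the other 22. Of the 20, 9 rose, where 12.2% of all genes rose, and their median difference was 1.01. Of the 22, 5 rose (Palb2, Mre11a, Chek2, Lig4 and Xrcc1), and their median difference was 0.51. The counts of 9 and 5 were 2 and 2 without Control replicate 1, 3 and 2 without Control replicate 2, 9 and 3 without Cnot3KO replicate 1 and 4 and 2 without Cnot3KO replicate 2. The share of all genes that rose was not determined with an array left out. Relative to the Control mean, the median of the 20 was 0.70 in Cnot3KO replicate 1 and 1.32 in replicate 2, and 19 of them were higher in replicate 2. The median of the 22 was 0.44 in replicate 1 and 0.56 in replicate 2, and 16 were higher in replicate 2. All 7 markers of dividing cells were higher in Cnot3KO replicate 2 than in replicate 1, with medians of 2.07 and 2.74 above the Control mean. All 7 were lower in Control replicate 2 than in Control replicate 1 (median -0.76). Of the 20 S-phase-linked genes 12 were lower in Control replicate 2, with a median difference between the Control replicates of -0.02, and of the 22 others 11. The part of dividing cells in the levels of the repair genes was not tested, nor was the difference between the 20 and the 22 genes.

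**Figure D4:**
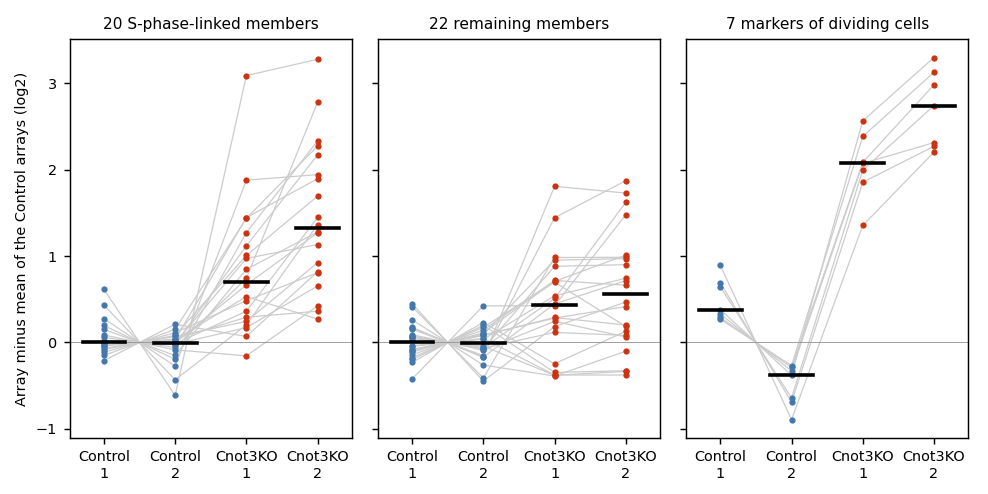
Value on each array minus the gene's mean over the 2 Control arrays, on the log2 scale (y axis), for the 20 S-phase-linked members, the 22 remaining members and 7 markers of dividing cells. Gray lines join the 4 values of a gene and black bars are medians; the Control points mirror each other because they are set against their own mean, and the medians in Cnot3KO replicates 1 and 2 are 0.70 and 1.32, 0.44 and 0.56, and 2.07 and 2.74.

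Promoters were read for the 36 of the 42 genes that a RefSeq table for the mouse build GRCm38.p6 holds, as windows from 250 bases before to 50 after the start. The letters of the E2F motif, bound by the factors that drive S-phase genes, were searched on both strands as TTTGGCGC, TTTCCCGC, TTTGCCGC and TTTCGCGC. They were found in 9 of 36 genes (25.0%), beside 2.6% of all 27025 genes in the table and 5.01% of those with at least 10 CG in a window. By call they were in 4 of 13 risen genes (Brca2, Chek2, Msh6 and Lig1) and in 5 of 23 that did not pass (Bard1, Rad51c, Fancg, Xrcc6 and Pold1). Calls here are those of the probe set with the highest mean, and Fancg and Pold1 rose by another. By class they were in 5 of 17 S-phase-linked genes and 4 of 19 others. CCAAT, searched on both strands, was in 19 of the 36 genes (52.8%, beside 41.1% of all genes). TTTGAA, the letters of the cell cycle homology region, was in 2 of 36 (5.56%, beside 20.2% of all genes and 12.8% of those with at least 10 CG). These were Bard1 and Fen1, neither of which rose by the probe set with its highest mean, though Fen1 rose by another. No motif's letters hold those of another. A match is a description of letters and not of a bound site.

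The 250 bases before the start are shown for 4 genes that differ in motif and in expression, 5′ to 3′ on the gene's strand, with E2F letters in capitals. These are Brca1 (chr11:101551956-101552205, minus strand), which rose most and has no match, Brca2 (chr5:150522371-150522620, plus strand) and Chek2 (chr5:110839733-110839982, plus strand), which rose and have a match on the opposite strand, and Xrcc6 (chr15:82016119-82016368, plus strand), which has such a match and did not pass.
Brca1: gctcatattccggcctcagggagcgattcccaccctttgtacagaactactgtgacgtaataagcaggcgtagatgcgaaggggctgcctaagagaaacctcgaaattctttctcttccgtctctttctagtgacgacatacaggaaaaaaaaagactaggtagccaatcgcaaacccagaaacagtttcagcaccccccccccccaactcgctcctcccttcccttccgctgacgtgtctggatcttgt
Brca2: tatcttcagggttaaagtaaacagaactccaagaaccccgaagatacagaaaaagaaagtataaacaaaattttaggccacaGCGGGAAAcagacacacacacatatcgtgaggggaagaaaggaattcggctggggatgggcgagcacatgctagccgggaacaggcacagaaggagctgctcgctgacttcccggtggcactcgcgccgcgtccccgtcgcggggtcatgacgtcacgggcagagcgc
Chek2: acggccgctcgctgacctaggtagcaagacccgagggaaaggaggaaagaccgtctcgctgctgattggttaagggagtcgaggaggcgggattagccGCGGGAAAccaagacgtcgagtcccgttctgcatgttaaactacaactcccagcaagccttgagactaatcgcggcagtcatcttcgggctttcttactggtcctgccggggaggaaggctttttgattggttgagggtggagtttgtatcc
Xrcc6: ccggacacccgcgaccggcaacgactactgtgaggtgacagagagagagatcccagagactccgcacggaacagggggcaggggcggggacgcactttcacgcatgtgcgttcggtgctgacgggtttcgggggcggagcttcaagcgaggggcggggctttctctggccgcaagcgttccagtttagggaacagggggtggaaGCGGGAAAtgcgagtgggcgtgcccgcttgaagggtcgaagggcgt
In Brca2, Chek2 and Xrcc6 the match begins 168, 152 and 46 bases before the start. Their differences in expression were 1.06, 0.86 and 0.35.

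Other genes of the same pathways, from a list of 107, were measured for 94 and tested for 93. Of these 23 rose and none fell, with a median difference of 0.52, where 12.2% of all genes rose and 4.64% fell. By unadjusted p under 0.05, limma gave 39 higher and 3 lower, beside 3842 and 2077 of all 16749 genes. The methods' t-test without adjustment gave 24 higher and 2 lower, beside 2365 and 1574 of all genes. The DNA polymerase and clamp genes held 9 of the 23 among 22 measured, with a median of 0.79. They included the clamp loader gene Rfc3, which read 4.49 and 4.53 in the Control livers and 6.56 and 6.85 in the Cnot3KO livers (2.19 ± 0.18, adjusted p = 0.00544). The primase gene Prim1 rose by 1.97 ± 0.34 (adjusted p = 0.0231), and Polk, a polymerase that copies past damaged bases, by 1.93 ± 0.22 (adjusted p = 0.00974). Of 7 further Fanconi genes 2 rose, with Slx4, which did not pass, counted here and under recombination. Ube2t, the conjugating enzyme of the Fanconi pathway, was at 2.98 and 2.92 in Control against 4.86 and 5.96 in Cnot3KO, which was the largest rise of the list (2.46 ± 0.37, adjusted p = 0.0168). Its second probe set was at -0.15 and did not pass. Fancf rose by 0.92 ± 0.16 (adjusted p = 0.0239). Of 14 further recombination genes 3 rose, with Rad51ap1 at 2.23 ± 0.47 (adjusted p = 0.0395). Of 14 further signalling genes 3 rose, namely the replication fork gene Timeless (2.10 ± 0.38, adjusted p = 0.0264), Trp53bp1, which shields broken ends (1.99 ± 0.34, adjusted p = 0.0224), and Atrip, the partner of Atr (1.71 ± 0.23, adjusted p = 0.0141). A second Trp53bp1 probe set also rose (1.41, adjusted p = 0.0127), and 3 others tested did not pass. Nucleotide excision repair, which removes bulky lesions and has no gene among the 42, had 2 of 16 genes higher, near the 12.2% of all genes, which were Ercc3 (1.39 ± 0.17, adjusted p = 0.0107) and Gtf2h4 (0.86 ± 0.16, adjusted p = 0.0280), both subunits of the transcription factor that opens DNA around a lesion. Rises were also found in 2 of 4 further end joining genes tested and 2 of 14 further base excision repair genes, the latter again near that share. Brcc3 did not pass by the probe set with its highest mean (0.61), but of its other tested probe sets 1 fell (-0.91, adjusted p = 0.0246) and 2 were at -0.81 and -0.38 without passing. The nucleotide excision repair gene Ercc1 did not pass by the probe set with its highest mean (0.41). Another of its probe sets rose (1.25, adjusted p = 0.0162), and the others were at -0.31 and -0.35 without passing. The count of 23 was 6 without Control replicate 1, 9 without Control replicate 2, 14 without Cnot3KO replicate 1 and 8 without Cnot3KO replicate 2.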

How the data were processed

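RNA of 4 livers was measured on Affymetrix GeneChip mouse genome arrays. The deposited intensities, 1 per probe set on a linear scale, come from RMA run by the authors (version not stated), which corrects background, normalizes between arrays and summarises probes. No depth or detection call was used. Log2 was taken with no added constant. Of 45037 probe sets 38405 exceeded the 20th percentile on at least 1 array, the low-intensity limit that the methods name, and were tested. The platform annotation, whose symbols can be old, named 1 gene for 34945 probe sets, several for 932 and none for 9160. A gene was represented by the probe set naming it alone with the highest mean. Groups were compared with lmFit and eBayes (limma 3.58.1, R 4.3.3; 5.40 total degrees of freedom), 2-sided, with Benjamini-Hochberg adjustment. The fit was tested on simulated data. Python 3.11.15 (pandas 2.3.3, numpy 2.4.6) made the tables and matplotlib 3.10.9 the plots.

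The members, lists and tests were chosen with earlier results of these data known. Genes were named if they rose, if they had the largest differences of a pathway group, or, among other repair genes, the largest rises. Further members, probe sets that went against their gene, Ercc1, Ercc3, Gtf2h4, Fancf, Brcc3 and Slx4 were chosen for naming with their values in view. The 42 genes belong to 5 pathways by the source list; signalling kinases and polymerases were set apart here.

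Alternatives were other filters, quantile normalization again, centring on array medians, on 9 ribosomal protein genes or on Rplp0 (added after seeing the data), the replicate number as a block, no _x_at or _s_at probe sets, other priors, other thresholds, the methods' t-test, averaging the probe sets of each gene, and each array left out.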

Additional observations from a re-analysis of the deposited data

How the results depend on the processing

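The 14 risen genes all remained without the filter, with a mean above the 50th percentile, with a robust prior, and when centred on ribosomal protein genes or array medians. Quantile normalization again left 11 (without Brca2, Chek2 and Rpa2) and made 1 other repair gene lower, a prior that follows intensity left 13 (without Chek2), and centring on Rplp0 left 10 (without Brca2, Chek2, Lig4 and Xrcc1), of which 2 were in the remaining class. With the replicate block 11 of the 14 passed (not Brca2, Chek1 and Rpa2) and Rad51c joined them, for 12. The labels do not say whether the numbers pair livers. The correlation of the deviations of same-numbered arrays was 0.23 over all tested probe sets and -0.00053 over the 42 genes. With 2 arrays per group these values cannot decide it. Cnot3 lost its call with the replicate block (-0.79, adjusted p = 0.0517), with the intensity prior (adjusted p = 0.0551), on Rplp0 (-0.86, adjusted p = 0.0723), and by the methods' t-test after adjustment, at an adjusted p under 0.01 and at 2-fold (all -0.79). With 1 array left out it ranged from -0.87 to -0.71 with no call. In the same cases 4 to 12 of the 42 genes rose, 2 to 9 of the S-phase-linked, 2 to 3 of the remaining and 6 to 14 of the other repair genes, and the median of the 42 ran from 0.52, without Cnot3KO replicate 2, to 0.91. A lone array in a group is assumed to vary like the other group. Averaging the probe sets of each gene gave a median of 0.53 and 15 genes, with Fancg and Pold1 but without Chek1. The methods' t-test, unadjusted, gave 12 higher and 2 lower, beside 2365 and 1574 of all 16749 genes, with 5 S-phase-linked genes higher and 2 other repair genes lower. After adjustment it gave 0 of the 42, 0 in either class and 0 other repair genes. At an adjusted p under 0.1, 8 remaining genes and 36 other repair genes rose and 1 fell. At an adjusted p under 0.01, 1 of the 42 rose, in the remaining class, 0 S-phase-linked and 2 other repair genes. At 2-fold, 3 remaining genes were higher. Among single genes that did not pass, the sign turned for Fancd2 with the mean of its probe sets (-0.12) and, with 1 array left out, for Atr (range -0.51 to 0.018), Nbn (-0.12 to 0.77), Bard1 (-0.16 to 0.42) and Xrcc4 (-0.29 to 0.17, and 0.13 without Cnot3KO replicate 1). With a mean above the 50th percentile 5 of the 42 genes had no value. Intensities near the lowest of the array, as for Bard1 and Exo1 in Control, compress folds.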
